A study of Mus musculus with 38 samples.

Results

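Pdgfra, Ptprz1, Lhfpl3, Pcdh15, Neu4, C1ql1, Cacng4, Matn4, Tmem100 and Vcan encode cell-surface, matrix-bound and secreted products that mark oligodendrocyte precursor cells (OPCs), the dividing glia that give rise to myelinating oligodendrocytes. They were taken by gene name from the deposited count table and make up 10 of its 54532 genes. All 10 were among the 22798 genes that passed the low-count filter and were tested. The libraries came from mouse forebrain at postnatal days 6 to 7. Dissociated cells were cleared of microglia and endothelial cells on a pair of lectin (BSL1) plates and then held on a plate coated with an antibody against PDGFRα, so the product of Pdgfra was itself the selection handle. Each of the 38 libraries pooled 2 mice, and both sexes were used.

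The KO mice were NG2:Cre+;Bmal1fl/fl, in which the promoter of NG2 (Cspg4), active in OPCs and in the mural cells of vessels, drives Cre recombinase. The WT mice were NG2:Cre-;Bmal1fl/fl. Both genotypes carried the floxed Bmal1 alleles, and no group had the Cre transgene with intact Bmal1, so Cre and loss of BMAL1 cannot be told apart. The labels describe the recombined allele as a hypomorph that lacks part of the DNA-binding domain. Mice were kept in 12 h of light and 12 h of dark and cells were collected at zeitgeber times (ZT) 0, 6, 12 and 18 h, where ZT0 is lights on and ZT12 lights off. There were 4, 7, 4 and 4 KO libraries and 4, 5, 6 and 4 WT libraries at these times. Sequencing was of poly-A RNA, and the values are gene counts, given here as counts per M (mega) of the scaled library size (CPM).

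OPCs divide and migrate under platelet-derived growth factor, which they sense through PDGFRα, and they surround themselves with proteoglycans and other matrix proteins. They also receive synapses from neurons and carry AMPA-type glutamate receptors. BMAL1 pairs with CLOCK as a transcription factor of the circadian clock and binds E-box sequences in the promoters of its target genes.

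RefSeq promoter windows, reaching 250 bases before to 50 after a start site on GRCm38.p6, were at hand for 7 of the 10 genes, with 8 windows because Matn4 had a pair. No window held CACGTG, the E-box that BMAL1 and CLOCK prefer, against 7.15% of 32851 RefSeq windows of the same 300 bases. The wider E-box form CANNTG, of which CACGTG is 1 case and which reads the same on both strands, was in 7 of the 8 windows, against 72.3% of all windows. These are counts of letters in a short window and say nothing about binding elsewhere. The windows of Neu4, Ptprz1, Lhfpl3, Pcdh15 and Vcan are shown because the first had its level changed at lights off and the others were the genes whose KO and WT libraries separated at ZT18. The Neu4 window is chr1:94020243-94020542 on the plus strand, the Ptprz1 window chr6:22875252-22875551 on the plus strand, the Lhfpl3 window chr5:22745804-22746103 on the plus strand, the Pcdh15 window chr10:73821617-73821916 on the plus strand and the Vcan window chr13:89742463-89742762 on the minus strand. That of Pcdh15 lies inside the span of the gene in the deposited table, at a later start site. CANNTG matches are in capitals, and the window of Ptprz1 is the one that holds none.
Neu4: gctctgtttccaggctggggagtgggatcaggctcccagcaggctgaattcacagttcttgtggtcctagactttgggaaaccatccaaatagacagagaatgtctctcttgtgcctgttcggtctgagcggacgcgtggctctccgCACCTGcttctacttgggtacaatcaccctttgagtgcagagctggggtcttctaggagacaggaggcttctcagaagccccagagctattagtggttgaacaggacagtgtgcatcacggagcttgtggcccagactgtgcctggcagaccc
Ptprz1: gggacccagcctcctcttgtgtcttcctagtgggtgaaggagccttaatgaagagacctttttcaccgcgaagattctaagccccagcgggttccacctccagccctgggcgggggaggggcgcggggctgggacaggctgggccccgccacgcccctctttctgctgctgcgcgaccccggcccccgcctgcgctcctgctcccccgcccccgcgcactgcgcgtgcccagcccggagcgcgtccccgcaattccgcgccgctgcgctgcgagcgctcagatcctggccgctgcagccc
Lhfpl3: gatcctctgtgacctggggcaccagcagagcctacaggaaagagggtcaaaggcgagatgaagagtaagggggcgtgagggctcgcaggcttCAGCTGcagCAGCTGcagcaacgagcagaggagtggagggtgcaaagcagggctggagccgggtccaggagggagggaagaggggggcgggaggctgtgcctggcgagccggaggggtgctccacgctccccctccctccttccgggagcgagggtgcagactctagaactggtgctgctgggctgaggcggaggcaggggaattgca
Pcdh15: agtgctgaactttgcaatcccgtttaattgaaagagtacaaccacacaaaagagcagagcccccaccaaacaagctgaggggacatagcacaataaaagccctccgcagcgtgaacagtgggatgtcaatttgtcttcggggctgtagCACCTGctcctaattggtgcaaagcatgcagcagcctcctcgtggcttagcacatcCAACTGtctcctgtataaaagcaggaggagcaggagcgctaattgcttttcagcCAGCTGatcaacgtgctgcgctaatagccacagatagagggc
Vcan: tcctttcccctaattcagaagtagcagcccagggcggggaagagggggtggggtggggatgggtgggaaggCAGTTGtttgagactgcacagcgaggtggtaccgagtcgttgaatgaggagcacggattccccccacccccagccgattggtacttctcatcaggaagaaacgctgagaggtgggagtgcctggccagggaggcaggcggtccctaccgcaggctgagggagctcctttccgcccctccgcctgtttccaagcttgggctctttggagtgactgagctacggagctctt

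Per kilobase of gene model, the 10 genes covered a wide range of levels. Pdgfra was the highest, at a mean of 405 CPM per kb over the 38 libraries, followed by Ptprz1 at 268 and Lhfpl3 at 209 CPM per kb. Cacng4 (177 CPM per kb) and C1ql1 (176 CPM per kb) lay together, then Matn4 (92.9 CPM per kb), Tmem100 (51.7 CPM per kb) and Vcan (41.3 CPM per kb). Pcdh15 (17.2 CPM per kb) and Neu4 (11.4 CPM per kb) were the lowest. Without correction for length, Pdgfra and Ptprz1 were 4th and 5th of all genes tested by mean CPM. The 10 genes together held 0.826% to 1.40% of the counts of a library, and every gene was counted in every library, so these markers of the labelled cell type were present throughout. The ratio of the highest to the lowest library ran from 1.72 for Pdgfra to 4.19 for C1ql1.

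**Figure D1:**
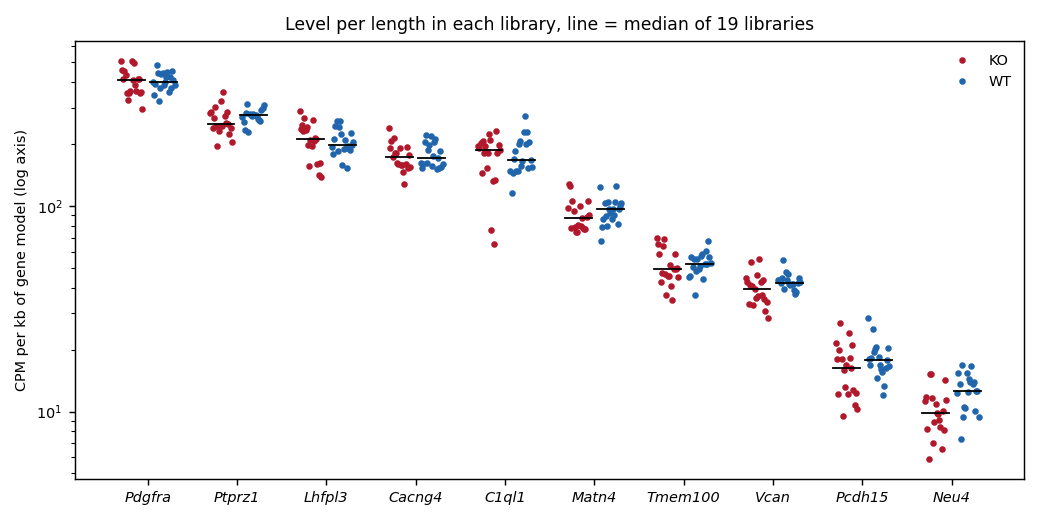
Level of each marker gene in CPM per kb of gene model (log axis) in every library, KO left of WT, with the line at the median of 19 libraries. Pdgfra is highest and Neu4 lowest in both genotypes, and 2 KO libraries of C1ql1 lie below all others of that gene.

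Library totals ranged from 19.4 to 39.0 M counts (median 25.9 M). A set of 8 libraries had a low share of ribosomal RNA genes, at most 0.263% against at least 0.409% in the other 30, and comprised WT ZT12 replicates 4 to 6, KO ZT6 replicate 7 and all 4 KO ZT18 libraries. At ZT18 this set and the genotype therefore cannot be told apart. In 13 libraries the counts were those of a single sex, with 7 lacking Y-linked counts and 6 at under 20 CPM of Xist. They were spread unevenly, with 4 of the 6 WT ZT12 libraries and 0 of the 4 KO ZT12 libraries. There were 3 in KO ZT6, 2 in WT ZT18 and 1 each in KO ZT0, WT ZT0, WT ZT6 and KO ZT18. Arntl, the symbol of Bmal1, had a lowest value of 17.7, a median of 20.9 and a highest of 23.4 CPM in KO, against 19.3, 21.8 and 33.2 CPM in WT (log2 fold change over all times -0.17, adjusted p = 0.183). The gene count includes exons that remain in the recombined allele, so it does not check the labels.

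Over all times, none of the 10 genes passed the threshold of 0.05 for the adjusted p between KO and WT, where 0.0921% of all genes tested did by edgeR. Their log2 fold changes were negative in 9 of 10, with a median of -0.068 against -0.018 over all genes tested. At ZT0 no gene passed (0.285% of all genes) and 7 of 10 were positive (median 0.21, all genes -0.046). At ZT6 none passed (0.0132%) and 8 of 10 were negative (median -0.12, all genes 0.0025). At ZT12, C1ql1 and Neu4 were lower in KO, 2 of 10 genes where 5.00% of all genes tested passed and 3.69% passed as lower. The signs were split there, with 5 of 10 positive and 5 negative (median -0.12, all genes -0.0076). At ZT18 none passed (2.14%) and 8 of 10 were negative (median -0.18, all genes -0.0036). At an unadjusted p under 0.05 the counts were 2 over all times (15.1% of all genes), 2 at ZT0 (18.4%), 0 at ZT6 (4.39%), 5 at ZT12 (20.1%) and 4 at ZT18 (18.2%). DESeq2 and limma-voom called 0 of the 10 over all times, at ZT0 and at ZT6, but at ZT18 DESeq2 called 4 and limma-voom 1. The shares of all genes given here are those of edgeR. The counts of the other tools stand without such a share and cannot be read as particular to the markers. In such bulk libraries, fewer OPCs and less RNA of a gene in each OPC cannot be told apart.

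**Figure D2:**
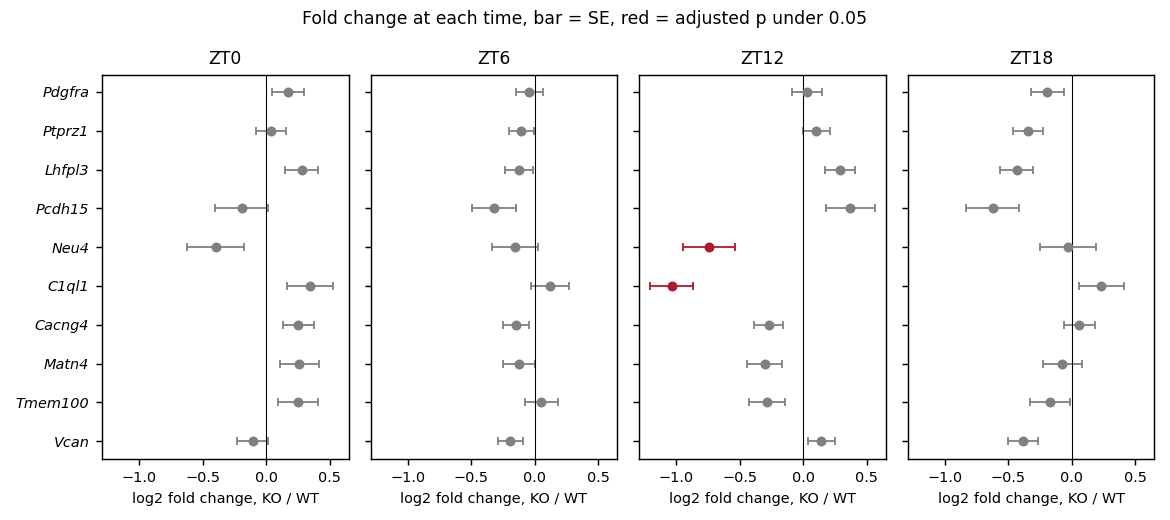
Log2 fold change (KO / WT) of each marker gene at each zeitgeber time, with the bar at 1 SE and calls at an adjusted p under 0.05 in red. Only C1ql1 and Neu4 at ZT12 are called, both lower in KO.

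Whether the genotype difference itself varied over the 4 times was tested by an interaction term. It passed for C1ql1 (adjusted p = 0.000769) and Lhfpl3 (adjusted p = 0.0117), 2 of 10 genes where 9.19% of all genes tested passed. Time of day within WT reached an unadjusted p under 0.05 for 2 of the 10 (17.5% of all genes). It passed the adjusted threshold for none of them (4.91% of all genes), and for 0 by DESeq2 and 0 by limma-voom. Within KO it passed for 5 (21.9% of all genes): Lhfpl3 (adjusted p = 0.0010), C1ql1 (adjusted p = 0.000697), Vcan (adjusted p = 0.0223), Pcdh15 (adjusted p = 0.0308) and Cacng4 (adjusted p = 0.0379). Without the low-rRNA libraries, which removes ZT18 from KO, 0 genes passed the interaction and 2 passed the test of time in KO. Leaving out single libraries ended the call of time in KO for Pcdh15 (any of 5 libraries), Cacng4 (any of 7) and Vcan (any of 3), but not for Lhfpl3 or C1ql1.

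**Figure D3:**
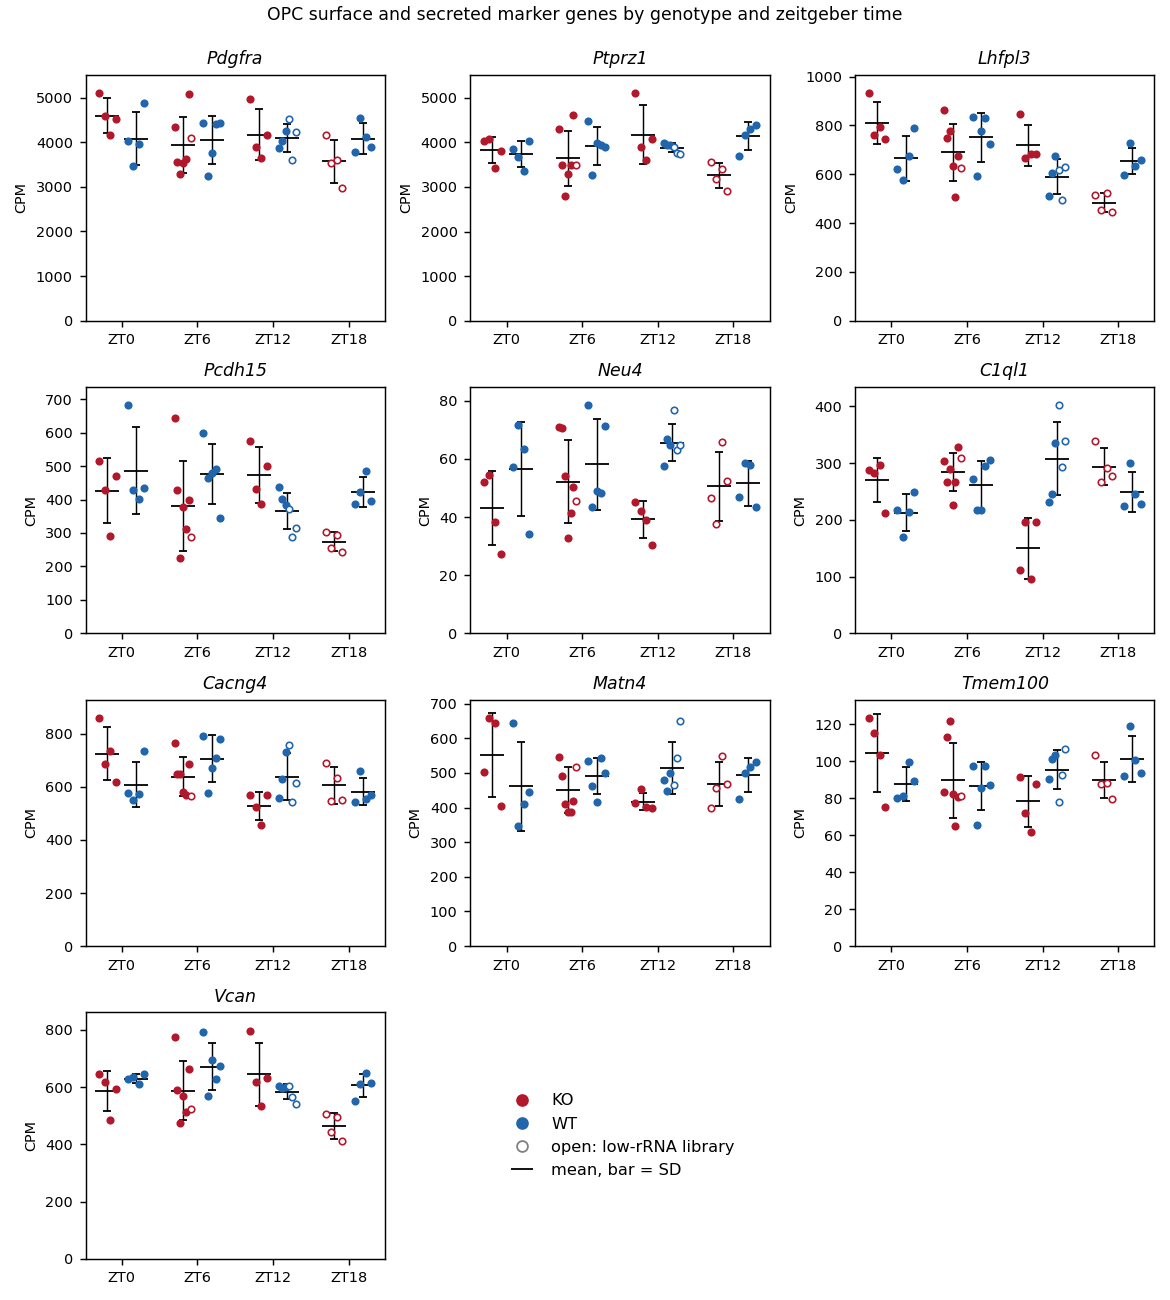
CPM of each marker gene in every library by zeitgeber time, KO left of WT, with the mean as a line, the SD as a bar and open points for low-rRNA libraries. C1ql1 and Neu4 separate at ZT12, with KO below WT, and Ptprz1, Lhfpl3, Pcdh15 and Vcan separate at ZT18, where every KO point is open.

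C1ql1 (ENSMUSG00000045532, chr11:102939264-102946688, minus strand) encodes a secreted C1q-like protein, known in the cerebellum as a synaptic ligand of the adhesion receptor Adgrb3 (BAI3). At ZT12, C1ql1 had 112, 196, 95.8 and 197 CPM in the KO ZT12 libraries, against a lowest value of 231, a median of 315 and a highest of 402 CPM in the 6 WT ZT12 libraries. Every KO library lay below every WT library, and Neu4 was the other marker gene to separate at this time (2 of 10, where the groups did not overlap for 5.27% of all genes). The fold was 0.488 (log2 fold change -1.03, SE 0.169, adjusted p = 0.000774). At ZT0, C1ql1 had 288, 282, 297 and 213 CPM in the KO ZT0 libraries, against 218, 171, 213 and 249 CPM in the WT ZT0 libraries. At ZT6, C1ql1 had a lowest value of 226, a median of 289 and a highest of 329 CPM in the 7 KO ZT6 libraries, against 272, 217, 218, 296 and 306 CPM in the WT ZT6 libraries. At ZT18, C1ql1 had 339.8, 267, 291 and 277 CPM in the KO ZT18 libraries, against 225, 301, 246 and 227 CPM in the WT ZT18 libraries. At those 3 times the libraries of both genotypes overlapped and the mean was higher in KO, without passing the test (adjusted p = 0.306 at ZT0, 0.974 at ZT6 and 0.525 at ZT18). The sign at ZT18, where the log2 fold change was 0.23, turned with the GC offset (-0.052) and with the low-rRNA set as a term (-0.042), and that at ZT6, 0.12, turned without the single-sex libraries (-0.00052).

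Within KO, C1ql1 fell at ZT12 against ZT0 (log2 fold change -0.84, SE 0.181, adjusted p = 0.00961), as did Cacng4, 2 of 10 genes (3.27% of all genes tested passed, 2.45% as lower). The call of C1ql1 was lost without KO ZT0 replicate 3, KO ZT12 replicate 1 or KO ZT12 replicate 3, with an adjusted p of up to 0.0920, and without the single-sex libraries (-0.80, adjusted p = 0.0645). Within WT the same step gave 308 ± 64.2 CPM in WT ZT12 and 213 ± 32.3 CPM in WT ZT0 (log2 fold change 0.53, SE 0.166, adjusted p = 0.131). None of the 10 genes passed in WT (0.00877% of all genes), and 0 did by DESeq2 and by limma-voom. An unadjusted p under 0.05 was reached by 2 of the 10 (14.5% of all genes). The ZT12 order of the genotypes held in the 3 WT libraries outside the low-rRNA set, which averaged 271 CPM, against 345 CPM in the 3 WT libraries inside it. Without the low-rRNA libraries the log2 fold change at ZT12 was -0.85 with an adjusted p of 0.121, in a comparison that then called 1 gene of all tested, against 1139 with them. With an offset per library that removes its trend with GC content, the difference at ZT12 was -0.64 (adjusted p = 0.0195).

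Among the related genes C1ql2, C1ql3, C1ql4 and the receptor Adgrb3, 1 of 4 passed, at ZT12 only, where 5.00% of all genes tested passed. C1ql2 was at 13.7 ± 3.79 CPM in KO and 26.7 ± 7.49 CPM in WT (log2 fold change -0.97, adjusted p = 0.00667). The median of the 4 at ZT12 was -0.52. None passed at another time or over all times.

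Neu4 (ENSMUSG00000034000, chr1:94020451-94028334, plus strand) encodes a sialidase, an enzyme that removes sialic acid, including polysialic acid, from glycoproteins and glycolipids. At ZT12, Neu4 had 45.3, 42.0, 39.1 and 30.5 CPM in the KO ZT12 libraries, against a lowest value of 57.7, a median of 64.7 and a highest of 76.9 CPM in the 6 WT ZT12 libraries. The highest KO library lay below the lowest WT library (fold 0.598; log2 fold change -0.74, SE 0.208, adjusted p = 0.0316). At ZT0, Neu4 had 52.2, 54.3, 38.3 and 27.3 CPM in the KO ZT0 libraries, against 57.3, 71.6, 63.4 and 34.1 CPM in the WT ZT0 libraries. At ZT6, Neu4 had a lowest value of 32.7, a median of 50.4 and a highest of 71.0 CPM in the 7 KO ZT6 libraries, against 78.4, 43.5, 49.0, 48.4 and 71.4 CPM in the WT ZT6 libraries. At ZT18, Neu4 had 46.6, 37.6, 65.9 and 52.5 CPM in the KO ZT18 libraries, against 46.8, 58.6, 58.0 and 43.4 CPM in the WT ZT18 libraries. The genotypes overlapped at these 3 times. Within a group, libraries ran from 27.3 to 54.3 CPM in KO ZT0 and from 34.1 to 71.6 CPM in WT ZT0. The range was narrower in WT ZT18, from 43.4 to 58.6 CPM. Across groups, the highest of the 38 libraries (78.4 CPM, WT ZT6) was 2.87 times the lowest (27.3 CPM, KO ZT0). Over all times Neu4 had the largest difference of the 10 genes (log2 fold change -0.33, SE 0.105, adjusted p = 0.131), short of the threshold. The ZT12 call was lost when any of 5 libraries was left out, namely WT ZT12 replicates 4 or 6 or KO ZT12 replicates 1, 3 or 4, with an adjusted p of up to 0.0977. Leaving out the low-rRNA set also ended it (-0.69, adjusted p = 0.326), as did that set as a term (adjusted p = 0.139), the GC offset (-0.73, adjusted p = 0.104) and leaving out libraries of a single sex (adjusted p = 0.172). The last of these drops 4 of the 6 WT ZT12 libraries and no KO ZT12 library.

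The other sialidases and the enzymes that build sialic acid chains, 8 tested genes of 9 listed, gave no call at any time between KO and WT. The genes with the smallest unadjusted p over all times were St8sia4, at a log2 fold change of 0.14 (adjusted p = 0.347) and St8sia2, at 0.25 (adjusted p = 0.494), both polysialyltransferases.

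Pdgfra (ENSMUSG00000029231, chr5:75152292-75198215, plus strand) encodes the receptor tyrosine kinase for PDGF-AA, the main mitogen of OPCs. Its level averaged 4596 ± 388 CPM in KO ZT0 and 4080.3 ± 589 CPM in WT ZT0. At ZT6 it averaged 3938 ± 622 CPM in KO ZT6 and 4053 ± 532 CPM in WT ZT6. At ZT12 the means were 4171 ± 576 CPM in KO ZT12 and 4086 ± 317 CPM in WT ZT12. The genotypes overlapped at each of these times. At ZT18, Pdgfra had 4165, 3536, 3607 and 2975 CPM in the KO ZT18 libraries, against 3776, 4549.7, 4109 and 3892 CPM in the WT ZT18 libraries. KO ZT18 was the lowest of the 8 groups, but its libraries overlapped those of WT (log2 fold change -0.19, SE 0.129, adjusted p = 0.447), and no test of Pdgfra passed in any of the 12 comparisons.

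Of 13 other genes of PDGF signalling, from the ligands to the kinases and adaptors downstream of the receptor, 3 were higher in KO at ZT18, where 2.14% of all genes tested passed. None of the 13 passed at the other times. Pdgfb, a ligand that endothelial cells are known to make, was at 86.2 ± 10.9 CPM in KO and 37.4 ± 12.9 CPM in WT (log2 fold change 1.21, adjusted p = 0.0410). Grb2, an adaptor that links receptors to Ras, was at 171 ± 4.40 CPM in KO and 129 ± 17.2 CPM in WT (log2 fold change 0.40, adjusted p = 0.0400). Ptpn11, the phosphatase SHP2, was at 167 ± 5.23 CPM in KO and 136 ± 8.66 CPM in WT (log2 fold change 0.29, adjusted p = 0.0443). The median over the 13 at ZT18 was 0.073. In the same libraries, all 14 endothelial markers had positive fold changes at ZT18 (median 0.77, 0 passed), and their summed level was 126 ± 24.2 CPM in KO ZT18 and 85.4 ± 22.3 CPM in WT ZT18. The part of these cells in the Pdgfb difference was not tested.

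Ptprz1 (ENSMUSG00000068748, chr6:22875502-23052916, plus strand) encodes a receptor-type tyrosine phosphatase whose extracellular part carries chondroitin sulfate and binds contactins and pleiotrophin. At ZT18, Ptprz1 had 3557, 3173, 3401 and 2906 CPM in the KO ZT18 libraries, against 3687, 4165, 4289.7 and 4394 CPM in the WT ZT18 libraries. All KO libraries lay below all WT libraries, which held for 4 of the 10 genes at ZT18 where 18.5% of all genes did not overlap (log2 fold change -0.34, SE 0.119, adjusted p = 0.105). At ZT0 Ptprz1 averaged 3836 ± 293 CPM in KO ZT0 and 3729 ± 292 CPM in WT ZT0. At ZT6 it averaged 3639 ± 615 CPM in KO ZT6 and 3915 ± 425 CPM in WT ZT6. At ZT12 it averaged 4169.7 ± 659 CPM in KO ZT12 and 3881 ± 106 CPM in WT ZT12. The genotypes overlapped at these 3 times, and the WT means of the 4 times lay close together. Of 13 genes for its ligands, partners and substrates, 1 passed: Sdc3, a heparan sulfate proteoglycan that also binds pleiotrophin, was at 969 ± 149 CPM in KO and 1390.2 ± 222 CPM in WT (log2 fold change -0.52, adjusted p = 0.0115) at ZT12. The median of the 13 at ZT12 was -0.012, where 5.00% of all genes tested passed.

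Vcan (ENSMUSG00000021614, chr13:89655312-89742509, minus strand) encodes versican, a large chondroitin sulfate proteoglycan of the lectican family that binds hyaluronan. At ZT18, Vcan had 508, 444, 494 and 412 CPM in the KO ZT18 libraries, against 552, 610.2, 648 and 614 CPM in the WT ZT18 libraries. The genotypes did not overlap, with KO below WT (log2 fold change -0.38, SE 0.121, adjusted p = 0.0752). At ZT0, Vcan had 645, 617, 485 and 595 CPM in the KO ZT0 libraries, against 630.0, 634, 610.0 and 645 CPM in the WT ZT0 libraries. At ZT6, Vcan had a lowest value of 475, a median of 569 and a highest of 776 CPM in the 7 KO ZT6 libraries, against 793, 569, 693, 628 and 674 CPM in the WT ZT6 libraries. At ZT12, Vcan had 797, 618, 535 and 632 CPM in the KO ZT12 libraries, against a lowest value of 541, a median of 598 and a highest of 604 CPM in the 6 WT ZT12 libraries. The genotypes overlapped at these 3 times, and KO ZT12 replicate 1 was the highest library of the gene. In the order of the 8 group means, KO ZT18 was lowest and did not overlap the group next above it, WT ZT12, whereas the other 6 pairs of neighbours overlapped. No other of the 10 genes had such a gap between neighbouring groups, but the share of all genes with one was not computed. All 4 KO ZT18 libraries are in the low-rRNA set. ZT6 against ZT18 within KO was short of the threshold (log2 fold change 0.34, SE 0.108, adjusted p = 0.0584).

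Among 22 other genes of the lectican matrix (core proteins, hyaluronan synthases and receptors, link proteins and proteases), 3 were lower in KO at ZT12. Of all genes tested, 3.69% passed as lower there. Fold changes were negative in 17 of 22 (median -0.36), where 49.1% of all genes were positive. The calls of this list were not examined without the low-rRNA libraries or with the GC offset. Bcan, the lectican brevican, was at 1148 ± 152 CPM in KO and 1713 ± 262 CPM in WT (log2 fold change -0.58, adjusted p = 0.0110). Cspg4, the proteoglycan NG2 whose promoter drives the Cre transgene, was at 758 ± 83.6 CPM in KO and 1061 ± 162 CPM in WT (log2 fold change -0.49, adjusted p = 0.0418). Cspg5, neuroglycan C, was at 1220.2 ± 114 CPM in KO and 1566 ± 186 CPM in WT (log2 fold change -0.36, adjusted p = 0.0369). At ZT18, 1 of the 22 passed and was higher in KO, where 2.14% of all genes tested passed. Adamts4, a protease that cuts lecticans and is known from maturing oligodendrocytes, was at 11.4 ± 1.37 CPM in KO and 4.81 ± 1.04 CPM in WT (log2 fold change 1.24, adjusted p = 0.0149). Oligodendrocyte markers were also higher in KO at ZT18, with 9 of 9 positive, 4 passing and a median of 1.17. Their summed level was 637 ± 88.3 CPM in KO ZT18 and 346 ± 23.6 CPM in WT ZT18, and their part in the Adamts4 difference was not tested.

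Matn4 (ENSMUSG00000016995, chr2:164389393-164405160, minus strand) encodes a matrilin, an adaptor protein that links fibres of the extracellular matrix. It averaged 553 ± 121 CPM in KO ZT0 and 461 ± 128 CPM in WT ZT0. At ZT6 it averaged 451 ± 65.3 CPM in KO ZT6 and 491 ± 52.7 CPM in WT ZT6. At ZT12, Matn4 had 413, 452, 402 and 398 CPM in the KO ZT12 libraries, against a lowest value of 447, a median of 490.2 and a highest of 650.2 CPM in the 6 WT ZT12 libraries. The genotypes overlapped, and the lower KO level did not pass (log2 fold change -0.31, SE 0.140, adjusted p = 0.206). At ZT18 it averaged 468 ± 62.7 CPM in KO ZT18 and 493 ± 48.6 CPM in WT ZT18. The other matrilins, Matn1, Matn2 and Matn3, gave no call, and their summed level of 6.66 to 17.7 CPM left Matn4 as the abundant member. Those with the smallest p over all times were Matn3, at a log2 fold change of 0.67 (adjusted p = 0.588) and Matn1, at -0.16 (adjusted p = 0.717).

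Lhfpl3 (ENSMUSG00000106379, chr5:22746059-23275597, plus strand) encodes a tetraspan membrane protein whose relative LHFPL5 partners with protocadherin 15 in hair cells. At ZT0, Lhfpl3 had 934, 760.0, 794 and 745 CPM in the KO ZT0 libraries, against 621, 575, 677 and 789.8 CPM in the WT ZT0 libraries. At ZT12, Lhfpl3 had 845, 665, 685 and 682 CPM in the KO ZT12 libraries, against a lowest value of 493, a median of 612 and a highest of 676 CPM in the 6 WT ZT12 libraries. The means were higher in KO at both times but the libraries overlapped (log2 fold change 0.28, SE 0.130, adjusted p = 0.243 at ZT0; log2 fold change 0.29, SE 0.118, adjusted p = 0.151 at ZT12). At ZT6, Lhfpl3 had a lowest value of 505, a median of 676 and a highest of 865 CPM in the 7 KO ZT6 libraries, against 834, 592, 778, 831 and 723 CPM in the WT ZT6 libraries. At ZT18, Lhfpl3 had 517, 453, 522 and 446 CPM in the KO ZT18 libraries, against 599, 727, 635 and 660.4 CPM in the WT ZT18 libraries. Here all KO libraries were below all WT libraries, the opposite order to ZT0 and ZT12, short of the threshold (log2 fold change -0.44, SE 0.131, adjusted p = 0.0624). DESeq2 (adjusted p = 0.0166), limma-voom (adjusted p = 0.0472) and scaling by library size alone (adjusted p = 0.0448) called it. Within KO, Lhfpl3 was higher at ZT6 than at ZT18 (log2 fold change 0.51, SE 0.118, adjusted p = 0.00807), 1 of 10 to pass (5.03% of all genes, 2.22% as higher). All 4 KO ZT18 libraries and 1 of the 7 KO ZT6 libraries are in the low-rRNA set, and with that set as a term the call ended (0.44, adjusted p = 0.193). Within WT none of the 10 differed by this test between ZT6 and ZT18 (4.60% of all genes), and 0 did by DESeq2 and by limma-voom. An unadjusted p under 0.05 was reached by 1 of the 10 (14.9% of all genes).

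Pcdh15 (ENSMUSG00000052613, chr10:73099342-74649737, plus strand) encodes protocadherin 15, an adhesion protein known from the tip links of inner-ear hair cells. At ZT18, Pcdh15 had 303, 256, 294 and 245 CPM in the KO ZT18 libraries, against 388, 423, 485 and 397 CPM in the WT ZT18 libraries. The genotypes did not overlap (log2 fold change -0.62, SE 0.211, adjusted p = 0.0963). At ZT12, Pcdh15 had 576, 431, 386 and 500.2 CPM in the KO ZT12 libraries, against a lowest value of 288, a median of 377 and a highest of 436 CPM in the 6 WT ZT12 libraries. The KO mean was higher here, with overlapping libraries (log2 fold change 0.37, SE 0.190, adjusted p = 0.269). At ZT0, Pcdh15 had 514, 428, 290.1 and 471 CPM in the KO ZT0 libraries, against 681, 429, 402 and 433 CPM in the WT ZT0 libraries. At ZT6, Pcdh15 had a lowest value of 226, a median of 377 and a highest of 643 CPM in the 7 KO ZT6 libraries, against 598, 464, 481, 492 and 346 CPM in the WT ZT6 libraries. WT ZT0 replicate 1 stood far above the other WT ZT0 libraries, and without it the log2 fold change at ZT0 was 0.0092 in place of -0.19. Of the other genes of this complex and of the LHFPL family, 8 of 11 listed were tested and 1 passed, at ZT12, where 5.00% of all genes tested passed. Tmie, a hair-cell channel subunit, was at 4.99 ± 2.58 CPM in KO and 8.26 ± 0.929 CPM in WT (log2 fold change -0.73, adjusted p = 0.0468).

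Cacng4 (ENSMUSG00000020723, chr11:107732357-107794557, minus strand) encodes a TARP, an auxiliary subunit that carries AMPA receptors to the membrane. At ZT12, Cacng4 had 568, 524, 456 and 569 CPM in the KO ZT12 libraries, against a lowest value of 542, a median of 621 and a highest of 757 CPM in the 6 WT ZT12 libraries. The libraries overlapped and the lower KO level did not pass (log2 fold change -0.27, SE 0.113, adjusted p = 0.160). At ZT0, Cacng4 had 859, 686, 737 and 620.3 CPM in the KO ZT0 libraries, against 576, 549.8, 574 and 734 CPM in the WT ZT0 libraries. The means at ZT6 were 638 ± 72.7 CPM in KO ZT6 and 706 ± 87.7 CPM in WT ZT6 and those at ZT18 were 606 ± 69.0 CPM in KO ZT18 and 582 ± 52.4 CPM in WT ZT18. Within KO, Cacng4 fell at ZT12 against ZT0 (log2 fold change -0.46, SE 0.124, adjusted p = 0.0337). This call was lost without any of 5 libraries, namely KO ZT0 replicates 1 or 3 or KO ZT12 replicates 1, 2 or 3, with an adjusted p of up to 0.173. It was also lost with the GC offset (adjusted p = 0.122), when the low-rRNA set was left out (adjusted p = 0.0562) and when the single-sex libraries were (adjusted p = 0.117). In 9 other TARP and AMPA receptor genes, 1 passed at ZT0 (0.285% of all genes) and 1 at ZT12 (5.00% of all genes). At ZT0, Cacng7 was at 172 ± 28.5 CPM in KO and 120.3 ± 17.5 CPM in WT (log2 fold change 0.52, adjusted p = 0.0464). At ZT12, Cacng8 was at 18.8 ± 2.73 CPM in KO and 29.6 ± 4.17 CPM in WT (log2 fold change -0.65, adjusted p = 0.0115). Both encode TARPs.

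Tmem100 (ENSMUSG00000069763, chr11:90030348-90036508, plus strand) encodes a small membrane protein, known in endothelium as a target of BMP9 signalling through ALK1. It averaged 104 ± 21.0 CPM in KO ZT0 and 87.6 ± 9.15 CPM in WT ZT0. At ZT6 it averaged 89.5 ± 20.2 CPM in KO ZT6 and 86.4 ± 13.1 CPM in WT ZT6. At ZT12, Tmem100 had 91.5, 72.0, 61.8 and 87.4 CPM in the KO ZT12 libraries, against a lowest value of 77.8, a median of 96.9 and a highest of 107 CPM in the 6 WT ZT12 libraries. The libraries overlapped (log2 fold change -0.29, SE 0.145, adjusted p = 0.264). At ZT18 the means were 89.7 ± 9.96 CPM in KO ZT18 and 101 ± 12.4 CPM in WT ZT18. No comparison of Tmem100 passed, and of 7 tested genes for the BMP9 receptors and their SMADs none passed between KO and WT at any time. Those with the smallest p over all times were Smad4, at a log2 fold change of 0.061 (adjusted p = 0.503) and Smad1, at 0.043 (adjusted p = 0.681).

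KO ZT18 was the lowest of the 8 groups for Pdgfra, Ptprz1, Lhfpl3, Pcdh15 and Vcan, and KO ZT12 for Neu4, C1ql1, Cacng4, Matn4 and Tmem100. The 5 genes lowest at KO ZT18 had a GC content of 41.5% to 48.1% in their longest transcript (median 44.5%) and spans of 45.9 to 1550 kb. The 5 lowest at KO ZT12 had 43.7% to 65.8% GC (median 51.2%) and spans of 6.16 to 62.2 kb. C1ql1, at 65.8%, was at the 99.6th percentile of GC content among genes tested. Across 22780 genes the fold change moved with GC content in opposite directions at these times, with a Spearman correlation of -0.416 at ZT12 and 0.376 at ZT18. Over the 10 marker genes it was -0.709 and 0.818. The same values can be taken library by library, which describes the trend and is no separate test of it. The correlation of a gene's deviation with its GC content then ran from -0.334 to -0.133 in KO ZT12. In WT ZT12 the correlation ran from -0.0158 to 0.349, with 0.284 to 0.349 in the 3 low-rRNA libraries of that group. It ran from 0.289 to 0.372 in KO ZT18 and from -0.0831 to -0.00387 in WT ZT18. The part of the GC trend in the differences of single genes was tested only through the offset per library. That offset was fitted for all 10 marker genes, and its values are printed for some of them. Those of Ptprz1, Lhfpl3, Pcdh15 and Vcan at ZT18 are not printed, so the part of the GC trend in their ZT18 differences is not shown. Under it the number of all genes called fell to 91 at ZT12, against 1139, and to 103 at ZT18, against 488.

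**Figure D4:**
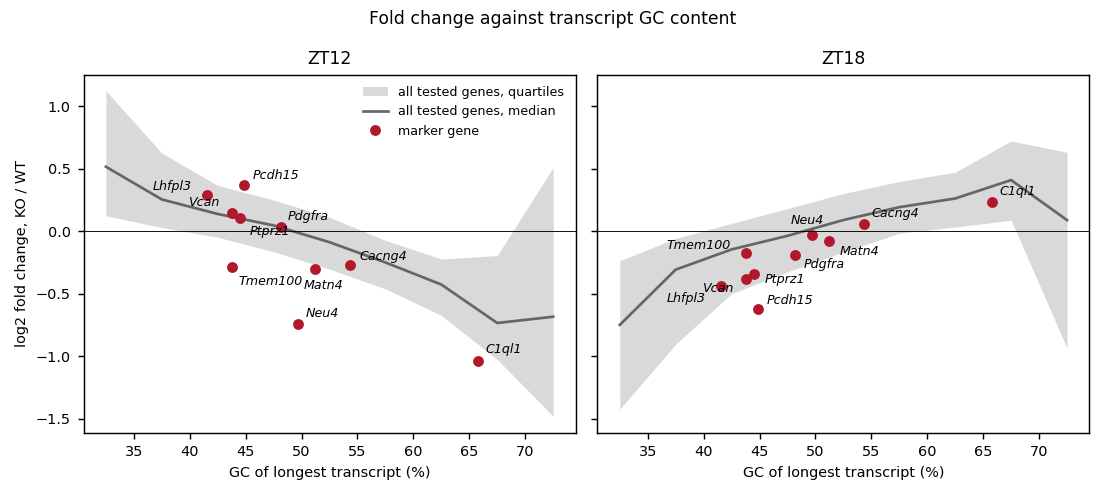
Log2 fold change (KO / WT) at ZT12 and ZT18 against the GC content of the longest transcript (%). The grey line is the median and the band the quartiles of all genes tested in GC bins, and points are the marker genes. The trend falls with GC at ZT12 and rises with GC at ZT18, and Neu4 lies farthest from the line at ZT12.

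The 10 genes varied together only in part. Over the 38 libraries, 39 of the 45 pairs had a positive Pearson correlation of log2 CPM (median 0.33), and after removal of group means 44 did (median 0.34). Pcdh15 and Vcan (0.85), Ptprz1 and Vcan (0.85), and Pdgfra and Ptprz1 (0.77) were the closest pairs. Without the low-rRNA libraries these were 0.79, 0.80 and 0.74. C1ql1 went with Cacng4 (0.62) and against Pcdh15 (-0.34), the lowest of the 45. These values are descriptions, since libraries share their scaling, GC trend and admixed cells.

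**Figure D5:**
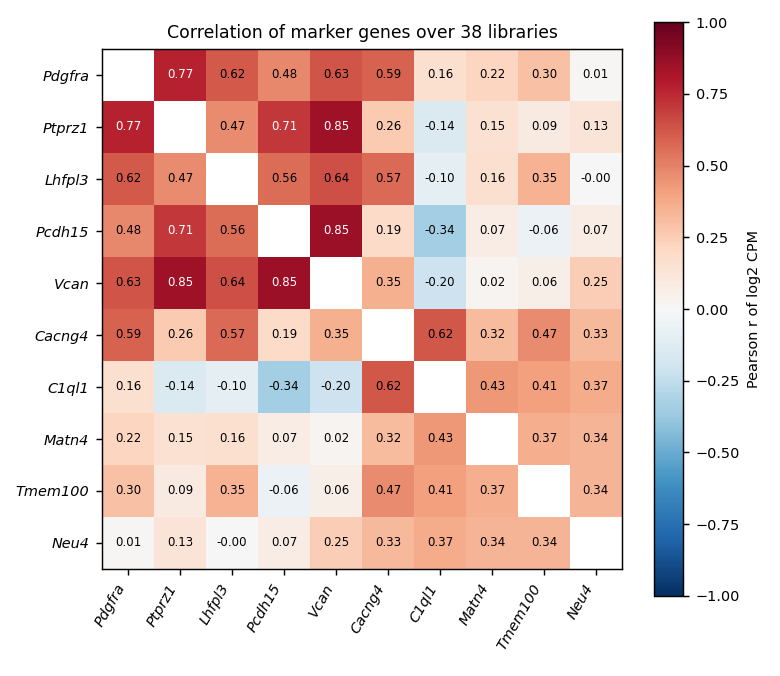
Pearson correlation of log2 CPM between marker genes over 38 libraries. Pcdh15 with Vcan, Ptprz1 with Vcan and Pdgfra with Ptprz1 have the highest values (0.85, 0.85 and 0.77), while C1ql1 is below 0 with Ptprz1, Lhfpl3, Pcdh15 and Vcan.

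Among 12692 named genes with a mean log2 CPM above 1, those whose levels followed each marker most closely over the 38 libraries were listed by Pearson correlation. The lists are descriptions, since libraries share their scaling, GC trend and admixed cells, and the part of these was not tested. Pdgfra was followed by Kcnd2 (0.91), Ptprg (0.90) and Pcdh11x (0.89). For Ptprz1 they were Ncam2 (0.88), Fut9 (0.87) and Slitrk2 (0.86). For Vcan they were Scn3a (0.92), Ankrd28 (0.90) and Csmd1 (0.89). Pcdh15 had the closest company, with Scn1a (0.96), Rev3l (0.96) and Unc80 (0.96). Lhfpl3 went with Chpt1 (0.86), Omg (0.85) and Vxn (0.85), and Cacng4 with Olfm2 (0.87), Dpp6 (0.87) and Slc35f1 (0.86). C1ql1 went with Pcsk1n (0.94), Chadl (0.92) and Sdc3 (0.91), of which Sdc3 is the proteoglycan named above. Neu4, Matn4 and Tmem100 had looser company: Neu4 had Lad1 (0.76), Susd5 (0.66) and Pigo (0.65), Matn4 had Acap3 (0.71), Rbpjl (0.67) and Slpi (0.67) and Tmem100 had Rgcc (0.66), Epdr1 (0.65) and Resp18 (0.64).

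Other cells were present in the panned samples and differed between groups. All 20 microglial markers were counted in every library, led by Csf1r and Cx3cr1, and their summed level ranged from 5051 to 23142 CPM. The group means were 8218 ± 2257 CPM in KO ZT0 and 11661 ± 5225 CPM in WT ZT0, then 15388 ± 4589 CPM in KO ZT6 and 13132 ± 2928 CPM in WT ZT6. They were 11616 ± 2998 CPM in KO ZT12 and 11624 ± 2278 CPM in WT ZT12, and 15401 ± 2576 CPM in KO ZT18 and 11889 ± 4938 CPM in WT ZT18. Median fold changes of the list were -0.52 at ZT0 (20 of 20 negative), 0.24 at ZT6 (19 positive), -0.0086 at ZT12 and 0.37 at ZT18 (20 positive), with 0 genes passing at any time. The fold change had the opposite sign in 7 of the 10 OPC marker genes at ZT0, in 8 at ZT6 and in 8 at ZT18.

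Correlation with the microglial markers was tested for the 10 genes alone. No share over all genes stands beside the counts, which therefore cannot be called particular to these genes. Across the 38 libraries, 5 of the 10 genes correlated negatively with the mean log2 level of the microglial markers, by permutation tests with 100000 resamples adjusted over the 10 genes. These were Ptprz1 (r = -0.58, adjusted p = 0.00110; rho = -0.61, adjusted p = 0.000400), Pdgfra (r = -0.56, adjusted p = 0.00110; rho = -0.56, adjusted p = 0.00160) and Pcdh15 (r = -0.55, adjusted p = 0.00130; rho = -0.53, adjusted p = 0.00230). Vcan (r = -0.44, adjusted p = 0.0146; rho = -0.47, adjusted p = 0.00815) and Lhfpl3 (r = -0.41, adjusted p = 0.0219; rho = -0.38, adjusted p = 0.0375) also passed. C1ql1 (r = 0.017, rho = 0.027) and Neu4 (r = 0.19, rho = 0.18), the genes called at ZT12, did not over the 38 libraries (permutation, adjusted p = 0.922 and 0.321 for r). Within the 30 libraries outside the low-rRNA set, r was -0.52 for Ptprz1, -0.55 for Pdgfra, -0.48 for Pcdh15, -0.32 for Vcan and -0.31 for Lhfpl3, and the last 2 no longer passed (permutation, adjusted p = 0.140 for both). Within the 8 low-rRNA libraries r was -0.84, -0.59, -0.83, -0.84 and -0.47 in the same gene order, and those of Pdgfra and Lhfpl3 did not pass (exact permutation, adjusted p = 0.176 and 0.298). In these 8 libraries Neu4 passed (r = -0.81, exact permutation, adjusted p = 0.0482; rho = -0.67, adjusted p = 0.138) and C1ql1 had r = -0.75 (exact permutation, adjusted p = 0.0636; rho = -0.81, adjusted p = 0.0726). They come from WT ZT12, KO ZT6 and KO ZT18 and were permuted without regard to group, so these values also carry differences between groups. On deviations from the means of the 8 groups, Lhfpl3 no longer passed for r (-0.34, permutation, adjusted p = 0.0617), Cacng4 did (-0.44, permutation, adjusted p = 0.0143) and the other 4 genes still passed. On these deviations over the 38 libraries, Neu4 (0.15, permutation, adjusted p = 0.425) and C1ql1 (-0.20, permutation, adjusted p = 0.277) did not pass. Without the 2 libraries farthest from the median of the microglial measure, r was -0.58, -0.56, -0.58, -0.46 and -0.34, of which that of Lhfpl3 did not pass (adjusted p = 0.0841, permutation). The part of microglial RNA in the KO and WT differences was not tested.

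At ZT18, where 8 of 10 OPC marker genes had negative fold changes, markers of several other cells were positive: neuronal markers in 13 of 15 (median 0.54), mural in 9 of 10 (median 0.89) and red blood cell in 7 of 7 (median 0.87), with 0 passing in each. Astrocyte markers were positive in 4 of 12 (median -0.024) and fibroblast markers in 3 of 7 (median -0.066). At ZT12, mural markers were negative in 9 of 10 (median -0.73, 1 passing) and oligodendrocyte markers in 8 of 9 (median -0.29, 1 passing). Fibroblast markers were negative in 7 of 7 (median -0.91, 0 passing), with a summed level of 233 ± 67.6 CPM in KO ZT12 and 453 ± 476 CPM in WT ZT12, where WT ZT12 replicate 5 held 1400 CPM and the other 5 WT libraries averaged 264 ± 118 CPM. The 8 transcription factors that define OPCs, such as Olig2 and Sox10, were counted in every library and none passed between KO and WT at any time by edgeR. Their median fold change was -0.22 at ZT12, with 6 of 8 negative, against the median of -0.12 of the 10 surface and secreted genes, and -0.076 at ZT18, against -0.18. The part of these cell populations in the results was not tested.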

How the data were processed

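A single table was deposited, holding for each of 54532 genes the raw read count in 38 libraries beside gene names, coordinates and lengths. Per the submitters' processing notes, the authors trimmed reads with fastp, aligned them with HISAT2 2.0.5 to GRCm38 (mm10) and counted them with featureCounts 1.5.0-p3. Which gene annotation and strand option the counting used is not given in the sources used here. Reads shared by overlapping genes may thus be assigned to either. The counts were used without change, and sample titles gave the group and replicate number of each library. The labels do not tie libraries to litters or days, so p-values measure the spread between pools of 2 mice. No pair of libraries within a group agreed within sampling noise (76 pairs, smallest chi-square per degree of freedom 12.2 over 14357 genes).

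Genes passing filterByExpr by group were kept, 22798 with 99.9% of counts. One edgeR 4.0.16 quasi-likelihood model (glmQLFit, glmQLFTest; R 4.3.3) with TMM scaling over 8 groups and 38 libraries gave 12 comparisons, with Benjamini-Hochberg adjustment over all genes tested and calls at 0.05. Every adjusted p is from this model unless another tool is named. Fold changes are KO over WT on the log2 scale with their SE, CPM values are mean ± SD over libraries, and CPM per kb divides by the deposited gene length. Log2 CPM used a prior count of 2. All 10 genes are described in every comparison; of the pathway lists, the genes called between KO and WT, or else the 2 with the smallest p over all times, are named. The members and lists were chosen with earlier results of these data known. For single genes the alternatives were read for the 10 marker genes alone, so the calls of pathway and cell type genes stand without them. Alternatives were RLE scaling, library size alone, no filter, DESeq2 1.42.0, limma-voom (limma 3.58.1), a replicate block, the low-rRNA set as a term or left out, and each library left out; leaving out single-sex libraries and a GC offset per library (GENCODE longest transcripts) were added after seeing the data. The model was also run on simulated counts with planted changes in KO ZT12. Those counts held no GC trend, low-rRNA set or admixed cells, so the run cannot tell how these act on the calls. Counting noise was small beside the spread between libraries.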

Additional observations from a re-analysis of the deposited data

Results flagged for a closer look

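In 3 of the 80 groups of 4 to 7 libraries examined (10 genes in 8 groups), a library lay far from the others by Dixon's test, which chance does in about 1 of 20 groups. Lhfpl3 was at 845 CPM in KO ZT12 replicate 1, against 665 to 685 CPM in the other KO ZT12 libraries. Pcdh15 was at 681 CPM in WT ZT0 replicate 1, against 402 to 433 CPM in the other WT ZT0 libraries. Cacng4 was at 734 CPM in WT ZT0 replicate 4, against 549.8 to 576 CPM in the others. The difference between KO and WT itself varied over the 4 times for Lhfpl3 (adjusted p = 0.0117) and C1ql1 (adjusted p = 0.000769) by the interaction term of edgeR. Lhfpl3 had higher means in KO at ZT0 and ZT12 and lower ones at ZT6 and ZT18, whereas C1ql1 had a lower mean in KO at ZT12 and higher ones at the other times, of which the sign at ZT18 turned with the GC offset (-0.052) and with the low-rRNA set as a term (-0.042), and that at ZT6 without the single-sex libraries (-0.00052).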

How the results depend on the processing

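Of the 12 counts of marker genes called, those over all times, at ZT0, at ZT6 and for the 3 tests within WT were 0 and stayed so under each alternative, apart from 1 over all times without WT ZT0 replicate 4. At ZT12 the count of 2 became 1 with the GC offset, 1 with the low-rRNA set as a term, 1 without single-sex libraries and 0 without the low-rRNA libraries. At ZT18 the count of 0 became 1 with RLE scaling, 1 with library size alone, 1 with limma-voom, 4 with DESeq2 and 3 with a replicate block; it had no value without the low-rRNA libraries. For the interaction the count of 2 became 1 with the GC offset, 4 with DESeq2, 3 with no filter, 3 with a replicate block, 3 without single-sex libraries, and 0 both without the low-rRNA libraries and with them as a term. For time within KO the count of 5 became 2 with the GC offset, 2 without the low-rRNA libraries and 1 with them as a term. For ZT12 against ZT0 within KO the count of 2 became 1 with the GC offset, 1 without the low-rRNA libraries and 0 without single-sex libraries. For ZT6 against ZT18 within KO the count of 1 became 2 with RLE scaling, 2 with DESeq2, 2 with limma-voom, 3 with a replicate block and 0 with the low-rRNA set as a term. The count of genes correlated with microglial markers, 5, was 7 with RLE scaling, 7 with the 5 most abundant microglial genes and 4 to 5 otherwise by Pearson correlation; by Spearman correlation it was 5, with 3 without the low-rRNA libraries, 1 within them and 4 to 6 otherwise. All these counts are given here without the share of all genes passing under the same alternative, so they cannot be read as particular to the markers. None of the fold changes that changed sign had been called. Over all times these were Pdgfra (-0.0082) at 0.054 and Ptprz1 (-0.076) at 0.0064 without the low-rRNA libraries, and Lhfpl3, at 0.0025, went to -0.0010 (GC offset), -0.0097 (RLE scaling), -0.0118 (library size alone), -0.0017 (no filter), -0.0097 (DESeq2), -0.0124 (replicate block) and -0.0124 (no single-sex libraries). At ZT0 Ptprz1 (0.041) was -0.00024 with the GC offset, and at ZT6 C1ql1 (0.12) was -0.00052 without single-sex libraries. At ZT18 C1ql1 (0.23) was -0.052 with the GC offset and -0.042 with the low-rRNA term, Cacng4 (0.058) was -0.095 with the GC offset and -0.0038 with library size alone, and Matn4 (-0.075) was 0.055 without single-sex libraries. The cause was not tested. Leaving out 1 library at a time, the counts ranged from 0 to 1 over all times, 1 to 2 at ZT12, 0 to 2 at ZT18, 2 to 4 for the interaction, 2 to 6 for time within KO, 0 to 4 for ZT12 against ZT0 within KO and 1 to 2 for ZT6 against ZT18 within KO. The log2 fold change then ranged from -0.034 to 0.013 for Pdgfra and -0.021 to 0.022 for Lhfpl3 over all times, and at ZT0 from -0.011 to 0.088 for Ptprz1 and -0.30 to 0.0092 for Pcdh15. It ranged from -0.039 to 0.12 for Tmem100 at ZT6, from -0.059 to 0.089 for Pdgfra and -0.0025 to 0.17 for Ptprz1 at ZT12, and from -0.18 to 0.090 for Neu4 and -0.016 to 0.12 for Cacng4 at ZT18. Replicate numbers did not pair libraries: over 116 same-numbered pairs the correlation of deviations had a median of 0.020, 16 were over 0.1, and 8 of 38 libraries correlated best with their own number. No scaling moved the median of all genes by over 0.1 (log2).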
